A study of Gasterosteus aculeatus with 53 samples.

Results

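The genes described here are the 100 genes whose brain expression was highest in Paxton benthic females relative to limnetic females of both lakes. They were taken from 22456 Ensembl gene identifiers. Reads per gene were divided by each library's total and scaled to CPM, the reads of a gene per 1000000 reads counted, and 17565 genes had a mean of at least 1 CPM. The 15913 genes whose mean log2(CPM + 0.5) differed by under 0.3 between the limnetic populations were then ranked. The score of a gene was the smaller of its 2 differences, Paxton benthic minus Paxton limnetic and Paxton benthic minus Priest limnetic, and the 100 highest scores were kept. The members were thus chosen by their mean levels in the 3 populations, and these levels are given as a description. No table used here pairs these identifiers with a gene name, a length or a position, so no role is given for any member, and levels are compared between females and not between genes.

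Each library came from the whole brain of 1 female threespine stickleback (Gasterosteus aculeatus). All females carried ripe eggs and belonged to populations sampled in lakes of Texada Island. Paxton benthic females (16 libraries) were courted by a conspecific male (5) or by a heterospecific male of their own lake (5), or were placed, as the social control, with a non-reproductive female from their home aquarium (6). Paxton limnetic females (18 libraries) were divided 6, 6 and 6 and Priest limnetic females (17 libraries) 5, 6 and 6 among the same treatments. The brain was taken within 20 min, or at spawning if that came earlier. No Priest benthic library was analysed, so species and population cannot be told apart for the benthic fish. Ages were not given in the sources used here. Markers of the tissue could not be checked, because the identifiers carry no names.

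Benthic and limnetic sticklebacks are a textbook case of young species that live side by side. Benthic fish feed near the lake bottom and limnetic fish in open water, and the pair has arisen in more than one lake. Expression that differs between populations whatever the female has just met is called constitutive, in contrast to expression that follows a social stimulus. In both species the male courts and the female decides whether to follow him to his nest.

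Total counts ranged from 23849743 to 52788436 per library. At these depths, 3 reads correspond to between 0.0568 and 0.126 CPM, and a library listed at 0 allows a level of up to that size (counting error only). The 2 further libraries, labelled Paxton benthic conspecific trial 83 and Priest limnetic conspecific trial 9, were left out by the study as apparently swapped, from the place of each among the other population in its expression data. They also had no part in the choice of members. The Priest limnetic social control of trial 72 stood apart from its population in the members, and several results are given with and without it. In whole brain, more cells of a type and more RNA per cell cannot be told apart. Reads of all females were aligned to the same assembly, and whether reads of each gene aligned equally well in each population was not tested.

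The scores of the members ran between 0.845 and 3.03, with a median of 1.07. A score of at least 2, a difference of 4-fold or more on this scale, was reached by 6 members, while 61 lay between 1 and 2 and 33 under 1. The last members inside the list were ENSGACG00000012517 (0.850), ENSGACG00000017266 (0.850) and ENSGACG00000010030 (0.845), and the first genes outside it scored 0.840, 0.839 and 0.839. The boundary thus cut through a continuous range. In the opposite direction, lower in benthic than in both limnetic populations, 22 genes reached the lowest score of the list and the highest such score was 2.75. Summed over the 100 members, the level was 2913 ± 410 CPM in Paxton benthic females, 1237 ± 179 CPM in Paxton limnetic females and 1200 ± 223 CPM in Priest limnetic females (SD, n = 16, 18 and 17).

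The member with the highest score was ENSGACG00000019518. It had a lowest value of 59.0, a median of 133 and a highest value of 174 CPM in Paxton benthic females, against 8.38, 13.9 and 25.1 CPM in Paxton limnetic and 8.77, 11.7 and 99.5 CPM in Priest limnetic females. Only 2 limnetic libraries, both from Priest Lake, reached the lowest benthic library, namely trial 72 at 99.5 and the heterospecific trial 23 at 59.8 CPM. Its mean log2(CPM + 0.5) was higher in Paxton benthic females by 3.11 than in Paxton limnetic and by 3.03 than in Priest limnetic females.

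Counts of the next 3 members were low in most limnetic brains, and in ENSGACG00000017574 and ENSGACG00000019364 they were close to the floor. ENSGACG00000017574 had 2.43 to 8.46 CPM (median 4.69) in Paxton benthic females, against 0 to 2.80 CPM (median 0.0528) in Paxton limnetic and 0 to 2.50 CPM (median 0.0730) in Priest limnetic females. Of the limnetic libraries, 4 were well above the others, at 2.80 and 1.93 CPM in Paxton limnetic trials 19 and 37 and at 2.50 and 1.59 CPM in Priest limnetic trials 23 and 72. The remaining 31 limnetic libraries had at most 0.257 CPM.

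ENSGACG00000020158 had 4.11 to 10.5 CPM (median 6.86) in Paxton benthic females, against 0.0941 to 0.829 CPM (median 0.417) in Paxton limnetic and 0 to 3.50 CPM (median 0.513) in Priest limnetic females. Here no limnetic library reached the lowest benthic one, and trials 72 and 23 were again the highest limnetic libraries, at 3.50 and 2.83 CPM. ENSGACG00000019364 had 2.30 to 6.81 CPM (median 3.31) in Paxton benthic females, against 0 to 0.361 CPM (median 0.149) in Paxton limnetic and 0 to 1.75 CPM (median 0.109) in Priest limnetic females. The benthic and limnetic ranges did not overlap, and trial 23 was the highest limnetic library at 1.75 CPM. The fewest reads of this gene in any benthic library were 75, which need not be the library of lowest CPM.

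**Figure D1:**
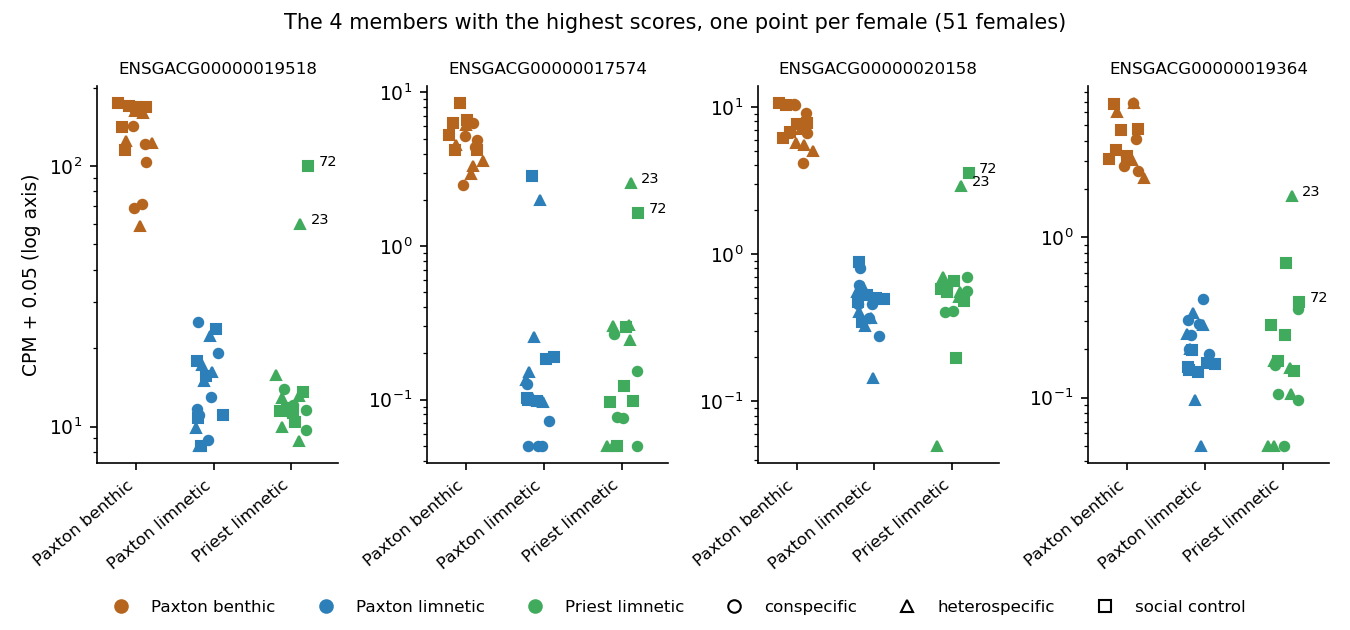
CPM plus 0.05 on a log axis of the 4 members with the highest scores, with 1 point per female for 16 Paxton benthic, 18 Paxton limnetic and 17 Priest limnetic females, and marker shapes for the treatments. Paxton benthic points lie above nearly all limnetic points. Priest limnetic trials 23 and 72, marked by their numbers, are the highest limnetic libraries for ENSGACG00000019518 (59.8 and 99.5 CPM) and ENSGACG00000020158 (2.83 and 3.50 CPM). For ENSGACG00000017574 Paxton limnetic trial 19 is the highest (2.80 CPM). For ENSGACG00000019364 trial 23 is the highest (1.75 CPM), while trial 72 (0.347 CPM) lies among the other limnetic libraries.

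The other members with scores above 2 were ENSGACG00000000869 and ENSGACG00000007562. ENSGACG00000000869 had 2.44 to 27.2 CPM (median 10.6) in Paxton benthic females, against 0.0244 to 5.70 CPM (median 1.39) in Paxton limnetic and 0.124 to 9.12 CPM (median 0.834) in Priest limnetic females, and 7 limnetic libraries exceeded the lowest benthic one. ENSGACG00000007562 had 3.39 to 10.1 CPM (median 5.75) in Paxton benthic females, against 0.360 to 1.95 CPM (median 0.803) in Paxton limnetic and 0.118 to 3.64 CPM (median 0.539) in Priest limnetic females. In ENSGACG00000007562 the only limnetic library above the lowest benthic one was trial 72.

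Complete separation was the exception. For 6 of the 100 members no limnetic library lay above the lowest benthic library, where 10 of the 17565 genes at 1 CPM or more (0.0569%) were separated in this way. Population levels chose the members, so this count describes the list and supports nothing. Without trial 72 the count was 10 members. Leaving out a limnetic library can only raise such a count, and the share of all genes was not counted without trial 72. Besides ENSGACG00000020158 and ENSGACG00000019364, the separated members were ENSGACG00000011633, ENSGACG00000009446, ENSGACG00000019530 and ENSGACG00000020280. ENSGACG00000011633 had 15.9 to 29.4 CPM in Paxton benthic females, against 3.45 to 14.9 CPM in Paxton limnetic and 3.73 to 8.47 CPM in Priest limnetic females. ENSGACG00000009446 had 86.5 to 219 CPM in Paxton benthic females, against 27.7 to 79.5 CPM in Paxton limnetic and 34.0 to 84.5 CPM in Priest limnetic females. Separation did not need a high score: ENSGACG00000020280, with a score of 0.863, had 27.5 to 42.5 CPM in Paxton benthic females, against 13.8 to 26.3 CPM in Paxton limnetic and 12.2 to 27.5 CPM in Priest limnetic females. Of the remaining members, 34 had 1 to 5 limnetic libraries above the lowest benthic one, 37 had 6 to 14 and 23 had 15 or more, out of 35. The median over the 100 members was 7 libraries.

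The members spanned a wide range of levels. Their benthic means lay between 1.82 and 256 CPM, with 29 members under 5 CPM, 55 between 5 and 50 CPM and 16 at 50 CPM or more. The mean of each limnetic population was below that of Paxton benthic females by construction, and 19 members had a mean under 1 CPM over the limnetic libraries. The member with the highest benthic mean, ENSGACG00000003697, had 121 to 464 CPM (median 244) in Paxton benthic females, against 42.8 to 221 CPM (median 103) in Paxton limnetic and 32.5 to 329 CPM (median 79.8) in Priest limnetic females, and 13 limnetic libraries exceeded the lowest benthic one.

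In the edgeR quasi-likelihood fit of populations and treatments over all 20011 genes that passed a filter on low counts, each member passed the filter, which a gene can do through its benthic libraries alone. Between Paxton benthic and Paxton limnetic females 100 members had an adjusted p-value under 0.1, the threshold of the study, where 35.6% of all genes did. Between Paxton benthic and Priest limnetic females the numbers were 99 members and 40.3% of all genes, and between Paxton limnetic and Priest limnetic females 1 member (ENSGACG00000020158) and 16.9%. That member was lower in Paxton limnetic females. Without trial 72, 0 members were called as lower and 2 as higher in Paxton limnetic females, where 3348 of 19999 genes were called. The rule used these contrasts, and the comparisons share libraries, so nothing is read from these counts. Median log2 fold changes of the members were 1.30, 1.31 and 0.012, where the medians over all genes were -0.0056, -0.011 and -0.0022. The member that missed the threshold against Priest limnetic females was ENSGACG00000017266, with an adjusted p of 0.178 in the edgeR fit. It had 1.09 to 16.5 CPM in Paxton benthic females, against 0.643 to 11.6 CPM in Paxton limnetic and 0.309 to 16.0 CPM in Priest limnetic females.

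The spread among females of 1 population is given as a description. The median SD of log2(CPM + 0.5) over the members was 0.456 among Paxton benthic, 0.471 among Paxton limnetic and 0.450 among Priest limnetic females, where the medians over all 17565 genes were 0.219, 0.201 and 0.226. Of the members, 53 had a mean under 5 CPM over all libraries used, and levels were not matched between the members and all genes. Larger SD in benthic females than in either limnetic population was found in 36 members. The share over all genes was not counted, so nothing is read from this count. The smallest benthic SD was that of ENSGACG00000020280 (0.170), and the largest that of ENSGACG00000020145 (2.09).

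ENSGACG00000020145 was not high in every benthic female. In 5 Paxton benthic libraries it had 10.8 to 26.1 CPM, and in the other 11 it had 0 to 1.1 CPM. Paxton limnetic females had 0.0481 to 1.93 CPM (median 0.259) and Priest limnetic females 0 to 2.39 CPM (median 0.205). The 5 benthic females were of trials 14, 31, 34, 39 and 64, and they came from each of the 3 treatments. The benthic median of 0.611 CPM lay within both limnetic ranges, and so did the highest value of the other 11 benthic females.

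A set of 3 members was lowest in the same pair of females. ENSGACG00000006593 had 0.576 to 520 CPM (median 103) in Paxton benthic females, against 1.41 to 158 CPM (median 53.9) in Paxton limnetic and 10.9 to 104 CPM (median 43.8) in Priest limnetic females. ENSGACG00000008195 had 0.271 to 69.7 CPM (median 27.3) in Paxton benthic females, against 0.926 to 25.1 CPM (median 13.7) in Paxton limnetic and 5.55 to 15.3 CPM (median 10.6) in Priest limnetic females. ENSGACG00000006709 had 0.135 to 15.9 CPM (median 7.38) in Paxton benthic females, against 0.146 to 5.18 CPM (median 3.22) in Paxton limnetic and 1.5 to 6.00 CPM (median 3.42) in Priest limnetic females.

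In each of these 3 genes the lowest benthic library was the conspecific trial 43, and the lowest Paxton limnetic library was the social control of trial 61. The second lowest benthic library had 51.5, 18.3 and 5.73 CPM in the same order of genes, far above the 0.576, 0.271 and 0.135 CPM of trial 43. Of all 17565 genes, 30 lay below 10% of their population median in trial 43 and 26 in trial 61, and 14 did so in both, among which were these 3 members. Over the 51 libraries this count per library ran from 2 to 91. It was highest in the Priest limnetic heterospecific trial 71, and the 30 and 26 were the next highest. The total counts of trials 43 and 61, 29537339 and 41016665, lay within the range over all libraries used, and the first was the lowest Paxton benthic total. After removal of group means, the correlations between pairs of the 3 genes lay between 0.789 and 0.925 over 51 libraries, which are given as a description.

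**Figure D2:**
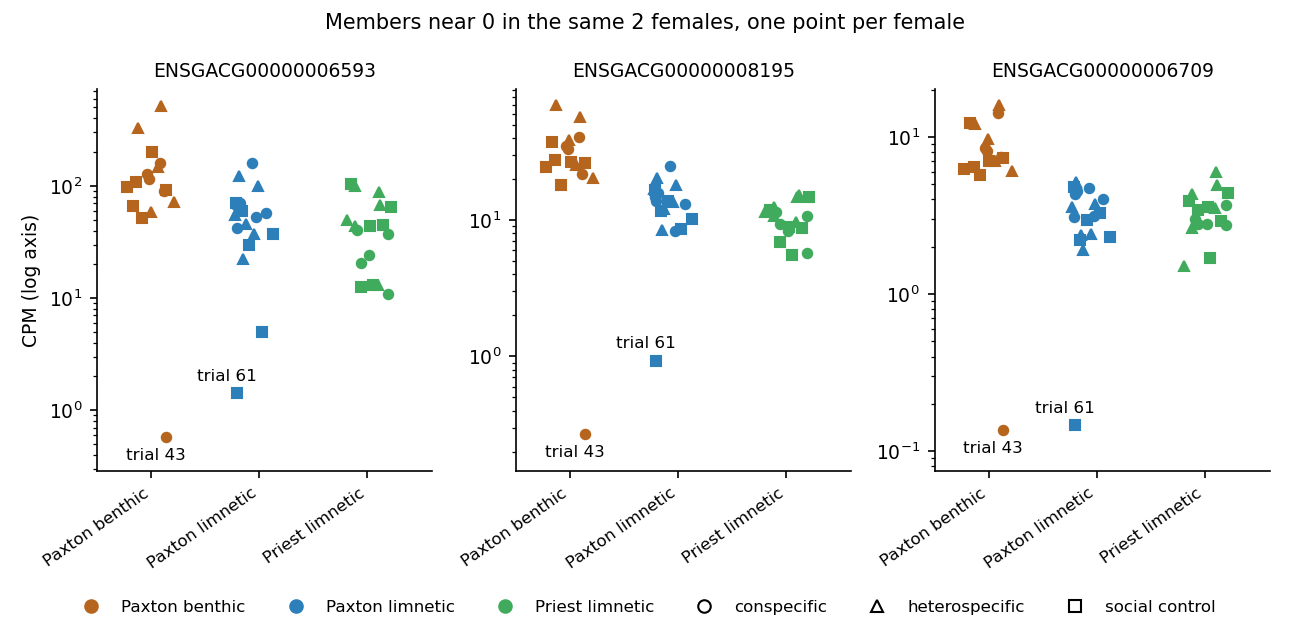
CPM on a log axis of 3 members, with 1 point per female for Paxton benthic, Paxton limnetic and Priest limnetic females, and marker shapes for the treatments. Paxton benthic trial 43 and Paxton limnetic trial 61, marked by their numbers, are the lowest libraries of their populations in each panel (0.576 and 1.41 CPM for ENSGACG00000006593).

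Few pairs of members varied closely together within groups. Over the 4950 pairs of members, the median correlation of deviations from the 9 group means was 0.117, and 19 pairs (0.384%) exceeded 0.7, where the median over all pairs of genes was 0.0075 and 0.724% exceeded 0.7. The closest pair was ENSGACG00000018429 and ENSGACG00000018430, at 0.946. They stand in successive rows of the count table, as do ENSGACG00000010927 and ENSGACG00000010917, at 0.840. In all, 8 pairs of members stood in successive rows, with a median correlation of 0.491, where the 15154 successive pairs of genes had a median of 0.0916. The sources used here do not state what the row order means, nor whether reads were counted by strand. If successive identifiers overlap or are near copies, their counts may share reads, so these pairs are uncertain as separate genes.

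A further 4 members, ENSGACG00000000107, ENSGACG00000000122, ENSGACG00000000129 and ENSGACG00000000137, lay within 17 rows of each other, with pairwise correlations between 0.810 and 0.930. ENSGACG00000000122, the most highly counted of them, had 78 to 168 CPM (median 122) in Paxton benthic females, against 31.4 to 134 CPM (median 55.7) in Paxton limnetic and 42.6 to 111 CPM (median 62.5) in Priest limnetic females. The highest limnetic libraries were Paxton limnetic trial 79 at 134 CPM and Priest limnetic trial 72 at 111 CPM. ENSGACG00000000107 was highest in the same limnetic libraries, at 7.16 CPM in trial 79 and 7.57 CPM in trial 72.

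Among genes outside the list, the one most like the first 4 members was ENSGACG00000007659, with Pearson correlations of log2(CPM + 0.5) between 0.910 and 0.935 over the 51 libraries of all populations and treatments. It had 7.83 to 20.3 CPM (median 12.7) in Paxton benthic females, against 1.1 to 3.09 CPM (median 1.68) in Paxton limnetic and 1.14 to 10.9 CPM (median 2.31) in Priest limnetic females. The highest Priest limnetic values were those of trials 72 (10.9 CPM) and 23 (7.26 CPM), and the third highest was 2.94 CPM. The score of this gene, 2.2, would have placed it among the members. It was left out because the limnetic populations differed by -0.39, a difference that is not given without trial 72. For ENSGACG00000000869 the most similar gene was ENSGACG00000000864 (r = 0.957), which was left out for the same reason, with a limnetic difference of 0.57.

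The 2 left-out libraries are described next, with no test. The study had already placed each of them among the other population by its expression, and the members were chosen as genes that separate the populations, so their place in the members is no independent evidence. Each library was placed, for each member, on a scale on which 0 was the mean of the limnetic populations and 1 the Paxton benthic mean of log2(CPM + 0.5), and the median over the 100 members was taken. The library labelled Priest limnetic conspecific trial 9 lay at 0.936, and 91 of 100 members were nearer to the benthic mean. The library labelled Paxton benthic conspecific trial 83 lay at -0.000967, and 6 of 100 members were nearer to the benthic mean. For ENSGACG00000019518 the library labelled Priest limnetic trial 9 had 163 CPM and the library labelled Paxton benthic trial 83 had 13.3 CPM. Libraries used by the rule lay between 0.752 and 1.23 in Paxton benthic, between -0.13 and 0.160 in Paxton limnetic and between -0.19 and 0.615 in Priest limnetic females.

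**Figure D3:**
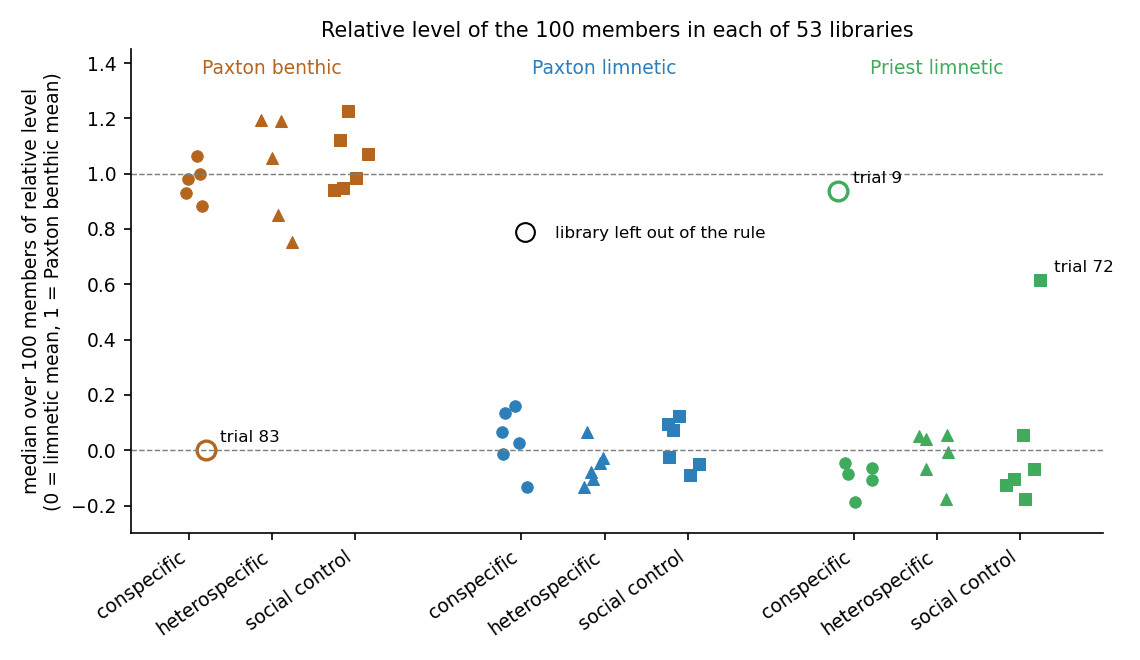
Median over the 100 members of the relative level of each library, on a scale on which 0 is the limnetic mean and 1 the Paxton benthic mean, by population and treatment. Open circles are the libraries left out of the rule, at 0.936 for the one labelled Priest limnetic trial 9 and at -0.000967 for the one labelled Paxton benthic trial 83, and Priest limnetic trial 72 lies at 0.615.

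The Priest limnetic library at 0.615 was the social control of trial 72, and the next Priest limnetic library was at 0.0540. In trial 72, 36 members lay at 0.75 or above, 36 between 0.25 and 0.75 and 28 under 0.25, and it was the highest of the 35 limnetic libraries in 33 members. Its values were 99.5 CPM for ENSGACG00000019518, 7.92 CPM for ENSGACG00000000869 and 3.64 CPM for ENSGACG00000007562, within the benthic ranges. For ENSGACG00000019364, in contrast, it had 0.347 CPM (12 reads), within the range of the other limnetic libraries. Its summed member level was 1910 CPM, below the lowest Paxton benthic library (2315 CPM).

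The Priest limnetic heterospecific trial 23 showed a narrower pattern. Over all 100 members it lay at -0.00496, with 11 members nearer to the benthic mean, as in other limnetic libraries. Yet it was intermediate in the leading 4 members, at 0.662, 0.730, 0.591 and 0.645 on the scale for ENSGACG00000019518, ENSGACG00000017574, ENSGACG00000020158 and ENSGACG00000019364. It was at -0.03 for the fifth member, ENSGACG00000000869, and at 0.454 for the sixth, ENSGACG00000007562. For ENSGACG00000007659, the gene outside the list with the most similar pattern, it was at 0.665. That gene was picked by correlations over libraries that include trial 23, so this value is no independent evidence.

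Whether the members responded to the stimulus fish was tested with 1 fitted mean per group (9 groups), in comparisons that the rule did not use. No member passed an adjusted p of 0.1 in Paxton benthic females in edgeR. Of all genes, 0.0150% passed for the conspecific against the heterospecific male, 0.00999% for the conspecific male against the social control and 0.0300% for the heterospecific male against the social control. Of the 100 members, 2, 4 and 2 had an unadjusted p under 0.05, where 7.45%, 5.82% and 3.77% of all genes had such a p. DESeq2 called 0 members in each, and 0.0414%, 0.0322% and 0.110% of all genes. Median log2 fold changes of the members were -0.067, -0.11 and -0.085, where the medians over all genes were -0.020, -0.017 and -0.0025. The first was 0.014 without the heterospecific library of trial 85 and 0.018 without that of trial 90.

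ENSGACG00000019518 averaged 101 ± 31.5 CPM in conspecific, 126 ± 41.7 CPM in heterospecific and 156 ± 23.5 CPM in social control females of the benthic population (SD, n = 5, 5 and 6). The log2 difference of conspecific from social control females was -0.61 ± 0.44 (SE), with an adjusted p of 0.827 in edgeR. This SE rests on a spread estimated over all 9 groups, limnetic females included, and not on the benthic females alone. ENSGACG00000020158 averaged 8.07 ± 2.69, 5.92 ± 0.854 and 8.14 ± 1.83 CPM in the same order of treatments. In both genes the treatment ranges overlapped. Every treatment mean of the benthic females lay above the Paxton limnetic range (at most 25.1 and 0.829 CPM) and the Priest limnetic range (at most 99.5 and 3.50 CPM). Both genes were chosen by their population levels, so this position is a description only.

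In Paxton limnetic females no member passed in edgeR either. The shares of all genes that passed were 0% for conspecific against heterospecific, 0.0750% for conspecific against social control and 0% for heterospecific against social control. At an unadjusted p under 0.05 there were 15, 2 and 15 of the 100 members, where 6.60%, 2.85% and 4.45% of all genes had such a p. DESeq2 called 3 members for conspecific against heterospecific (0.203% of all genes), 0 for conspecific against social control (0.216% of all genes) and 1 for heterospecific against social control (0.0368% of all genes). The members called by DESeq2, named after their values were seen, were ENSGACG00000018836, ENSGACG00000018621 and ENSGACG00000019886. Without the heterospecific library of trial 30, edgeR called 4 members for conspecific against heterospecific (0.395% of all genes) and 2 for heterospecific against social control (0.0600% of all genes). Without the conspecific library of trial 40, 55 or 57 it called 2, 3 and 1 members in the first of these comparisons, where 0.0600%, 0.130% and 0.0300% of all genes were called. Without the social control of trial 79 it called 1 member in the second (0.00999% of all genes).

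ENSGACG00000018836 averaged 3.64 ± 0.983 CPM in conspecific, 1.81 ± 0.684 CPM in heterospecific and 3.90 ± 1.55 CPM in social control females of the Paxton limnetic population (SD, n = 6 each). The log2 difference of conspecific from heterospecific females was 1.02 ± 0.23 (SE) in edgeR, with an adjusted p of 0.137 in edgeR and 0.0205 in DESeq2 (0.0205 to 0.287 over 8 settings). In Paxton benthic females the means were 7.82 ± 1.00, 8.52 ± 2.1 and 7.75 ± 2.13 CPM in the same order. The difference between these responses, benthic minus Paxton limnetic, was -1.14 ± 0.33 (SE) on the log2 scale, with an adjusted p of 0.561 in edgeR. Without a call on that difference, the response is not shown to differ between the populations.

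In Priest limnetic females 0 members passed in edgeR, where 0.00500%, 0.0200% and 0% of all genes did, for conspecific against heterospecific, conspecific against social control and heterospecific against social control. At an unadjusted p under 0.05 there were 8, 12 and 8 of the 100 members, where 3.34%, 4.66% and 7.70% of all genes had such a p. Without trial 72 there were 10, 8 and 15 members, where 680, 978 and 1851 of 19999 genes had such a p. DESeq2 called 0 members in each, and 0.110%, 0.244% and 0.143% of all genes. The balance of directions depended on trial 72 and on the left-out libraries. Conspecific minus social control was positive in 19 members with a median of -0.20 on the log2 scale, and without trial 72 it was positive in 49 members with a median of -0.02. Heterospecific minus social control was positive in 42 members with a median of -0.07, and without trial 72 in 71 members with a median of 0.15. With all 53 libraries under their labels, conspecific minus heterospecific was positive in 68 members with a median of 0.20, against 24 members and -0.23 in the 51 libraries, and conspecific minus social control was positive in 69 members with a median of 0.14. That fit counts trial 9, at 0.936 on the scale above, as a Priest limnetic conspecific female. Its levels raise the conspecific mean of the members, so nothing about the treatments is read from this change. No member was called without trial 72 or with all 53 libraries, and few genes were called at all. In the order of comparisons above, 1, 9 and 0 of 19999 genes were called without trial 72. With all 53 libraries 0, 4 and 0 of 20018 genes were called.

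The 4 tests of whether a response differed between benthic and limnetic females also called 0 members in edgeR, where 0% of all genes passed. At an unadjusted p under 0.05 these tests gave 9 and 3 members for conspecific minus heterospecific, and 3 and 5 members for conspecific minus social control, with Paxton limnetic before Priest limnetic females as the population compared. The shares of all genes with such a p were 6.57%, 3.15%, 2.54% and 5.90% in the same order. DESeq2 called 0 members in each, and 0.0230%, 0%, 0.0414% and 0.0414% of all genes. With the populations pooled, 0 members differed between females that met any male and social controls (0.00500% of all genes; 10 members and 4.27% of all genes at an unadjusted p under 0.05; 0 members and 0% of all genes by DESeq2). Without trial 72, 5 members and 717 of 19999 genes had an unadjusted p under 0.05 in edgeR for this comparison. Between conspecific and heterospecific males, 0 members differed in edgeR (0% of all genes, 6 members and 4.98% of all genes at an unadjusted p under 0.05), while DESeq2 called 1, ENSGACG00000018621 (0.0692% of all genes).

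**Figure D4:**
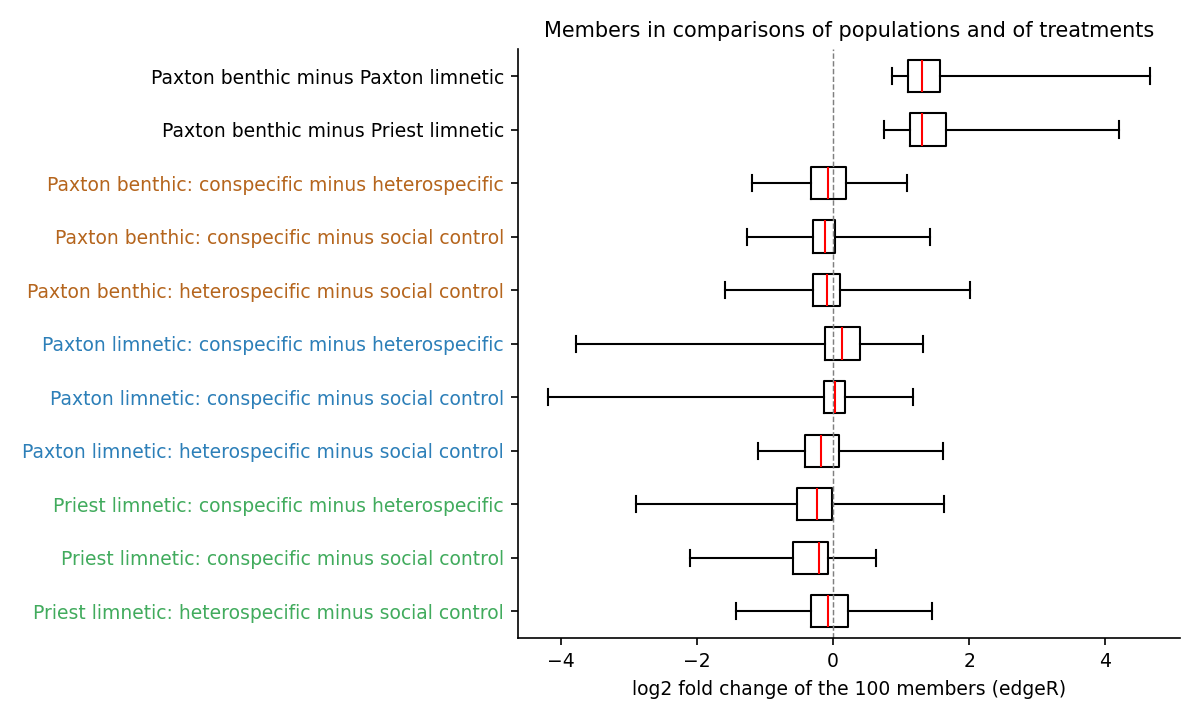
Log2 fold changes from edgeR of the 100 members in comparisons of Paxton benthic with limnetic females, which the rule used, and in the 3 treatment comparisons of each population. Boxes span the quartiles, red lines mark medians and whiskers reach the lowest and highest member, with population medians of 1.30 and 1.31 and treatment medians between -0.23 and 0.13.

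Trial number, the only running number in the labels, differed between the populations, its median being 79.5 among Paxton benthic, 38.5 among Paxton limnetic and 44 among Priest limnetic females. The slope of each gene on trial number within the 9 groups was therefore estimated, in log2 units per 10 trials. In edgeR 15 members had an adjusted p under 0.1, where 17.6% of all genes did, so the share of members is close to that of all genes. Of these, 14 rose with trial number (9.77% of all genes) and 1 fell (7.83% of all genes). Without trial 72, which has the highest trial number of its population, 10 members were called, where 16.3% of all genes were. With the 2 left-out libraries under their labels 6 members were called, where 17.5% of all genes were. These libraries, trials 9 and 83, lay at 0.936 and -0.000967 on the scale above, near the mean of the other population. Nothing about trial number is therefore read from that count. With trial number added to the population model, 97 members were called against Paxton limnetic (29.8% of all genes) and 97 against Priest limnetic females (36.6% of all genes), and their median log2 fold changes were 1.24 and 1.27. These contrasts chose the members, so nothing about trial number is read from these counts and medians.

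Within the 16 Paxton benthic libraries alone, 4 members were called on trial number, where 0.815% of all genes were (23 members and 12.5% of all genes at an unadjusted p under 0.05). Within the limnetic libraries 6 members were called, where 13.4% of all genes were, and 4 without trial 72, where 13.1% were. ENSGACG00000008610, ENSGACG00000010269 and ENSGACG00000011997 were called in each of these fits. The restriction to part of the libraries was chosen after seeing the data.

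ENSGACG00000008610 had 4.81 to 7.50 CPM in the 5 Paxton benthic libraries of trials 14 to 43, and 9.09 to 15.4 CPM in the 11 of trials 64 to 91. The early and late benthic females did not overlap. The slope was 0.20 ± 0.04 (SE) over all 51 libraries (adjusted p = 0.000124 in edgeR), 0.20 ± 0.02 in benthic libraries alone and 0.13 ± 0.04 in limnetic libraries without trial 72. Paxton limnetic females had 1.24 to 3.39 CPM, and in Priest limnetic females trials 44, 71 and 72 (7.59, 5.86 and 15.8 CPM) stood above the others, which had at most 3.33 CPM.

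ENSGACG00000010269, one of the most highly counted members, had a median of 165 CPM and at most 211 CPM in the early benthic libraries, and a median of 233 CPM and at most 280.3 CPM in the late ones, with overlap. Its slope was 0.10 ± 0.02 over all libraries (adjusted p = 2.45e-05 in edgeR), 0.07 ± 0.02 in benthic libraries and 0.10 ± 0.02 in limnetic libraries without trial 72. ENSGACG00000011997 had 1.32 to 7.18 CPM in the early and 3.17 to 25.7 CPM in the late benthic libraries, with a slope of 0.29 ± 0.06 (adjusted p = 0.000388 in edgeR). With trial number in the model this gene was called against neither limnetic population. How much of the population difference of these genes comes with the later trials of benthic females was not tested beyond these fits.

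The member that fell with trial number was ENSGACG00000020145, with a slope of -0.51 ± 0.14 (SE) over all libraries (adjusted p = 0.0140 in edgeR) and of -0.87 ± 0.18 in benthic libraries (adjusted p = 0.0524). The 5 benthic libraries above 10 CPM were of trial 64 or earlier, and the only other benthic library up to trial 64, trial 43, was at 0. In limnetic libraries the slope was -0.16 ± 0.17, with an adjusted p of 0.626.

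**Figure D5:**
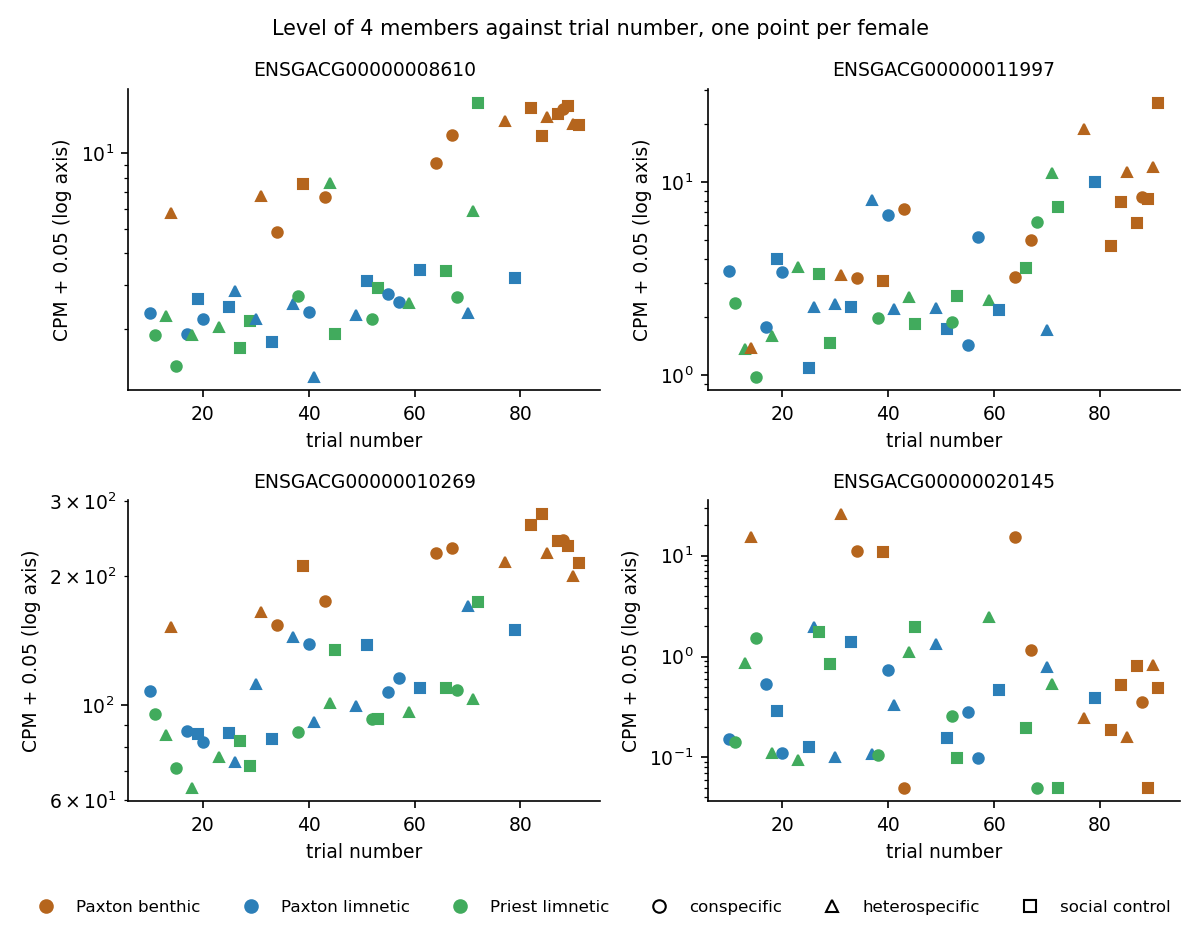
CPM plus 0.05 on a log axis against trial number for 4 members, with 1 point per female coloured by population and shaped by treatment (51 females). ENSGACG00000008610 lies at 4.81 to 7.50 CPM in benthic females up to trial 43 and at 9.09 to 15.4 CPM from trial 64 on, and ENSGACG00000020145 is above 10 CPM in 5 benthic females, of trial 64 or earlier.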

How the data were processed

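RNA of whole brains was sequenced as paired reads, with 1 library per female. The deposited values are counts per gene without normalization, made by the authors with Trimmomatic 0.33, BWA 0.7.7, SAMtools 1.2 and bedtools 2.23.0 from reads aligned to the Ensembl draft genome, the same assembly for females of each population. Strand settings of the count were not given in the sources used here.

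Groups were taken from the population, treatment and trial codes in the labels, and 1 library has another trial number in its title than in its description, which was used (88). The members and lists were chosen with earlier results of these data known. Lists of cell type and pathway genes could not be applied, because 0 identifiers matched the gene table of the RefSeq assembly, which was used only for this match.

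Counts were tested with edgeR 4.0.16 (R 4.3.3, limma 3.58.1): TMM normalization, its filter on low counts, the quasi-likelihood test and Benjamini-Hochberg adjustment over all genes, with a threshold of 0.1. Separate fish are the replicates. Within a fit, all groups shared 1 estimate of the spread of each gene. DESeq2 1.42.0, other size factors, no filter, all 53 libraries, trial number as a covariate and leaving out single libraries were alternatives. The tests were checked on simulated data, and no power of the treatment comparisons is taken from that check. Leave-one-out fits kept the gene filter and trended dispersions of the 51 libraries. Genes named are the top scores, the highest levels, the most and least variable members, those next to the boundary, those called, the separated members, and others named for a library or pair that stood out.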

Additional observations from a re-analysis of the deposited data

Results flagged for a closer look

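Single females that stood apart from the other 4 or 5 of their group were sought by Dixon's criterion in 14 members and in 2 measures over all members, 144 groups in all. It marked 31, and its nominal rate is about 1 in 20 groups (5%), a rate for normally spread values. Single members were examined as CPM, and all marks were on high values. The low values of Paxton benthic conspecific trial 43 described above were not marked, so low values may be missed. Some of the 14 members were named because a library stood out in them, and the same libraries recur across members. No excess over that rate is therefore read from the count. No cause was tested.

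On single members, 8 of the marks were on the Priest limnetic social control of trial 72. They were its high values for ENSGACG00000019518 (99.5 CPM), ENSGACG00000017574 (1.59 CPM), ENSGACG00000020158 (3.50 CPM), ENSGACG00000000869 (7.92 CPM), ENSGACG00000007562 (3.64 CPM), ENSGACG00000008610 (15.8 CPM), ENSGACG00000011997 (7.34 CPM) and ENSGACG00000000107 (7.57 CPM). Its median relative level of 0.615 was marked as well. The Priest limnetic heterospecific trial 23 was marked as high for ENSGACG00000019518 (59.8 CPM), ENSGACG00000017574 (2.50 CPM), ENSGACG00000020158 (2.83 CPM) and ENSGACG00000019364 (1.75 CPM).

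In ENSGACG00000017574 the Paxton limnetic heterospecific trial 37 (1.93 CPM) and social control trial 19 (2.80 CPM) were high, in ENSGACG00000020158 the Paxton limnetic social control trial 61 (0.829 CPM), and in ENSGACG00000019364 the Paxton limnetic social control trial 19 (0.147 CPM). The value of 0.147 CPM was high only within its group, since it lay close to the floor and just under the Paxton limnetic median. ENSGACG00000000869 was high in the Priest limnetic conspecific trial 11 (9.12 CPM). ENSGACG00000020145 was high in the Paxton benthic social control trial 39 (10.8 CPM), the Paxton limnetic social control trial 33 (1.33 CPM) and the Priest limnetic conspecific trial 15 (1.47 CPM).

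ENSGACG00000006593 was high in the Paxton limnetic conspecific trial 17 (158 CPM), whose summed member level was also high (1711 CPM), as was that of the Paxton benthic conspecific trial 34 (3437 CPM). ENSGACG00000006709 was high in the Paxton benthic social control trial 91 (12.3 CPM) and the Priest limnetic conspecific trial 52 (3.67 CPM). ENSGACG00000011997 was high in the Paxton benthic social control trial 91 (25.7 CPM), in the Paxton limnetic heterospecific trial 37 (8.03 CPM) and social control trial 79 (9.95 CPM), and in the Priest limnetic conspecific trial 68 (6.16 CPM) and heterospecific trial 71 (11.1 CPM).

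Outside the comparisons, the library labelled Priest limnetic conspecific trial 9 lay at 0.936 on the scale from limnetic (0) to benthic (1) levels, above each of the 17 Priest limnetic libraries used. It was left out because its expression already stood with the other population, so this value is no independent evidence.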

How the results depend on the processing

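The list kept between 75 and 100 of its 100 genes under TMM library sizes, no minimum level, a pseudocount of 1, a limnetic bound of 0.2, all 53 libraries, equal weight per treatment and without trial 72, and 91 to 99 when single libraries were left out, with 63 members kept each time. A minimum of 5 CPM kept 47, because 53 members had a mean under 5 CPM over all libraries used. The number of members called between Paxton limnetic and Priest limnetic females (1) was 5 with all 53 libraries, where 2949 of 20018 genes were called. It was 2 without trial 72 (3348 of 19999 genes) and 2 with trial number added (3584 of 20011 genes). Both members called without trial 72 were higher in Paxton limnetic females, where the 1 of the main fit was lower. Without Paxton benthic trial 43 and Paxton limnetic trial 61, chosen after seeing the data, it was 2 (3439 of 20097 genes). With single libraries left out it was 0 to 2. DESeq2 called 1 member between conspecific and heterospecific males pooled, 3 for the same comparison in Paxton limnetic females and 1 for heterospecific against social control there. Leaving out single libraries gave 0 to 4 and 0 to 2 members in these Paxton limnetic comparisons, with calls without heterospecific trial 30 (4 and 2), conspecific trials 40, 55 and 57 (2, 3 and 1) and social control trial 79 (1 for heterospecific against social control). Members called on trial number (15) were 6 with all 53 libraries (17.5% of all genes) and 4 in benthic libraries (0.815%). They were 6 in limnetic libraries (13.4%), 4 in these without trial 72 (13.1%), and 10 to 17 with single libraries left out. For the limnetic and trial fits with single libraries left out, shares of all genes are not given. Those ranges are therefore not read as a result about the members. With all 53 libraries, the left-out libraries enter under labels that their levels in the members do not match, so those changes are not read as a result. The cause of the other changes in these counts was not tested. Medians over the members changed sign in some settings. Of 19 comparisons, the median turned in 7 with all 53 libraries, in 2 without trial 72 and in 1 with trial number added, 8 comparisons in all, and in 5 when single libraries were left out. No paired analysis was possible because the groups compared share fewer than 2 trial numbers. Groups of 5 or 6 females limit the treatment comparisons, and members under 5 CPM are the least precise.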
